A study of Mus musculus with 9 samples.

Results

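Genes of the coats and channels that carry new proteins from the endoplasmic reticulum (ER) to the Golgi apparatus were followed in neutrophils of tumor-bearing mice. They were chosen by symbol. The classes were the signal recognition particle (Srp), the Sec61 translocon with its TRAP subunits (Sec61, Sec62, Sec63, Ssr) and signal peptidase (Sec11, Spcs). Then came the COPII coat with the Sec22 family (Sar1, Sec13, Sec16, Sec22, Sec23, Sec24, Sec31), the COPI coat with the Arf GTPases (Cop, Arf), and the p24 cargo receptors (Tmed). This gave 63 of the 46517 genes listed, with 7 in the first class, then 10, 5, 16, 14 and 11. RNA was sequenced from Ly6G+ Ly6C+ Lin- CD45+ neutrophils sorted from bone marrow, blood and tumor of OT mice, which are C57BL/6 mice with an orthotopic pancreatic ductal adenocarcinoma (PDAC) grown from transplanted tumor cells, at day 27. All 3 compartments thus came from tumor-bearing mice, and no tumor-free animals were analysed here. In the labels, cells from bone marrow are marked as Ly6G high. Each compartment had 3 libraries from independent experiments, each library being a pool of cells from 5 mice, so that variation between single mice was not measured. The paper describes the bone marrow and blood cells as coming from the same mouse as the tumor cells. The fits below treat the compartments as unpaired unless a replicate block is named.

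Secreted and membrane proteins start their route when the signal recognition particle brings the ribosome to the Sec61 channel in the ER membrane, where signal peptidase removes the signal peptide and the TRAP complex assists some substrates. COPII vesicles carry cargo from the ER toward the Golgi, COPI vesicles return escaped proteins and cargo receptors, and the p24 proteins travel in both. Neutrophils make most of their granule proteins during maturation in the bone marrow, and release stored and newly made proteins later, at sites of inflammation.

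Between 7108871 and 7949367 reads per library were recovered in bone marrow, between 4580807 and 6830374 in blood and between 5446499 and 6969557 in tumor. The values were log2 FPKM (fragments scaled to gene length and library size, on a log2 scale) on library sizes that the authors had scaled by a factor (mean ± SD, n = 3 each) of 0.840 ± 0.043 for bone marrow, 0.841 ± 0.023 for blood and 1.15 ± 0.069 for tumor. Plain library totals raise every gene in tumor, and moved the median log2 fold change of all genes tested from -0.17 to 0.24 against blood and from -0.21 to 0.21 against bone marrow. The libraries also held RNA that marks other cells. A list of 8 epithelial markers summed to 2460 to 5256 RPM (reads scaled to library totals) in tumor (highest in tumor 3) against 7.03 to 135 elsewhere, with all 8 higher in every tumor library than in any other library. The 6 fibroblast markers summed to 1098 to 1352 against 0.18 to 7.96, the 6 acinar markers to 656 to 2879 against 1.27 to 8.49, and the 4 endothelial markers to 83.9 to 121 against 10.4 to 34.8. Every gene of these 3 lists was also higher in each tumor library than in any other. The plasma and B cell markers, of which 6 were in the table, summed to 205 to 355 in tumor against 22.2 to 95.2. Only 1 of these 6 was higher in every tumor library than in any other. The 6 macrophage markers were highest in blood (1083 to 1241), and the 6 T and NK cell markers were at 26.2 or less. The 8 neutrophil markers fell from 41906 to 43550 in bone marrow and 32474 to 33120 in blood to 10369 to 12013 in tumor, and none was at 0 in a compartment. Epithelial, acinar, fibroblast and plasma cells are heavy secretors that use the genes described here, and their part in every tumor difference below was not tested. In bulk samples, fewer cells of a type and less RNA per cell cannot be told apart.

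Of the 63 genes, 49 exceeded a log2 FPKM of 0 in 3 or more libraries and were tested, and 14 were not. Copg2 and Sec22c had no value over 0 outside bone marrow, so they could only be tested because they were high there. Against blood, 19 of the 49 were higher in tumor and 8 were lower (limma, adjusted p under 0.05), where 28.1% of all 7794 genes tested were higher and 34.5% were lower. Their median log2 fold change was 0.28, beside -0.17 for all genes tested. Against bone marrow, 10 were higher in tumor and 13 were lower, where 22.4% and 32.9% of all genes tested were, and the median was -0.12 beside -0.21. With limma-voom on recovered reads, a fit over 17714 genes that took in 62 of the 63, 18 were higher than in bone marrow. The share of all genes called in that fit was not calculated, so the count of 18 cannot be set against all genes. The median was 0.028 with limma-voom and, over all 63 genes, 0.040 without the filter. Both medians include genes that the filter left out, so the sign depended on which genes entered. In blood against bone marrow, 4 were higher and 19 were lower, where 20.6% and 23.6% of all genes were, and the median was -0.43 beside -0.04. Leaving out bone marrow 3 gave 12 lower, in a fit for which the share of all genes was not calculated. Each compartment enters both of its comparisons with the same 3 libraries. With plain library totals, 30 of the 49 were higher and 2 lower in tumor than in blood (37.1% and 24.6% of all genes tested), and 19 were higher and 5 lower than in bone marrow (33.1% and 21.2%). Blood then had 4 higher and 17 lower than bone marrow (21.3% and 23.2%).

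**Figure D1:**
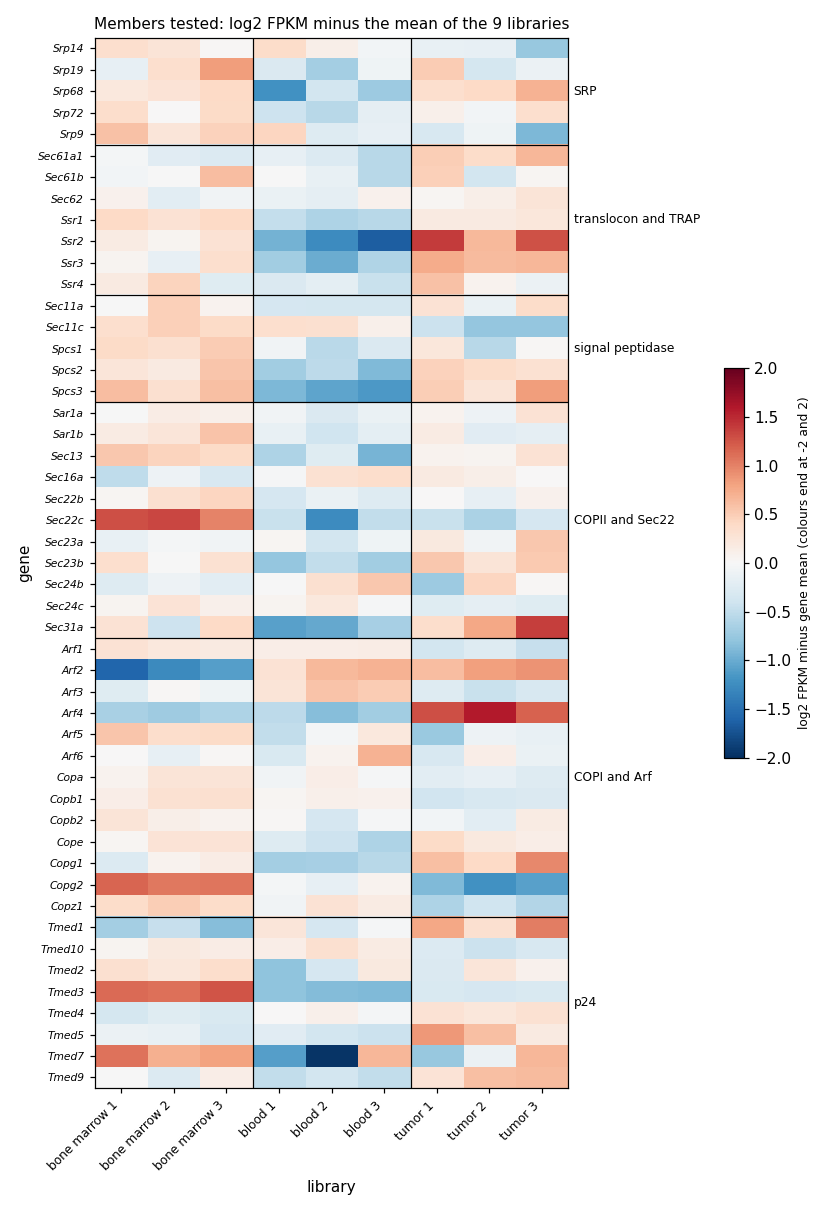
Heat map of the 49 genes tested (rows, by role) in the 9 libraries (columns). Colour gives the log2 FPKM minus the gene's mean over the libraries, and colours end at -2 and 2. Arf4 and Ssr2 stand out as high in the tumor libraries, Copg2, Sec22c and Tmed3 as high in bone marrow, and Tmed7 varies most between libraries of one compartment.

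As a share of each library, the 63 genes together took from 4971 to 5669 RPM of the bone marrow libraries, 4183 to 4382 of the blood libraries and 6636 to 7603 of the tumor libraries. On the library sizes as scaled by the authors, these sums were 6244 to 6431, 4934 to 5202 and 5991 to 6226. Blood was lowest in every library on either scale, whereas tumor was above bone marrow in every library on plain totals and below it in every library on the authors' scaling. Of the 49 genes tested, 9 were higher in tumor than in blood and bone marrow alike, where 16.5% of all genes tested were. These were Sec61a1, Ssr2 and Ssr3 of the translocon, Arf4 and Copg1 of the COPI machinery, and the p24 genes Tmed1, Tmed4, Tmed5 and Tmed9. Another 7 were lower in tumor than in both, where 23.7% of all genes tested were, namely Arf1, Copb1, Copg2, Copz1, Sec11c, Sec24c and Tmed10. Of these 16 genes, all 9 and 2 of the 7 (Copg2 and Sec11c) kept their calls with plain library totals, which called 18 genes higher and 2 lower in tumor than in both (24.7% and 14.2% of all genes tested). Lower in blood than in both other compartments were 14 genes (13% of all genes tested were), Arf3 alone was higher there than in both (13.8%), and 12 genes were called in no comparison.

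**Figure D2:**
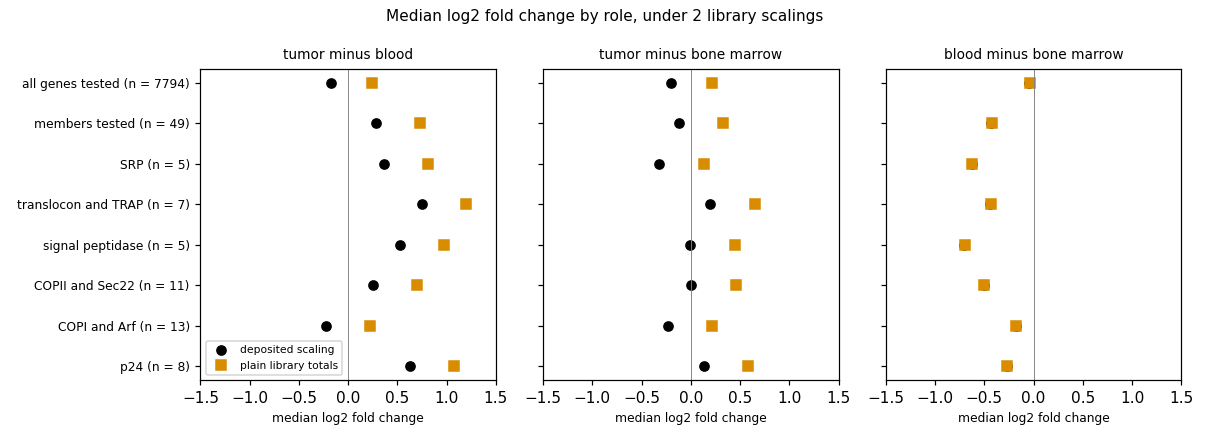
Median log2 fold change of all 7794 genes tested, of the 49 genes tested and of each role class, in the 3 comparisons, with the deposited scaling (black circles) and with plain library totals (orange squares). The translocon and TRAP class has the highest median of tumor minus blood, 0.75, and every class median of blood minus bone marrow is below that of all genes tested. Plain totals move tumor medians to the right and hardly move those of blood minus bone marrow.

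Promoter sequence was available for 53 of the 63 genes, matched by symbol to RefSeq windows on GRCm38.p6 that run from 250 bases before to 50 after a start site. Both strands were searched for letters known from stress-induced secretory genes. The string ACGTGGC, the core of a Golgi stress response element, stood in the windows of 18 genes (34.0%), against 2.95% of all genes with a window and 5.04% of the genes tested. The string TGACGTGG, an unfolded protein response element, stood in 6 (11.3%), against 0.714% and 1.18%. The shorter ACGTG that both contain stood in 33 (62.3%), against 21.8% and 30.4%. The longer ER stress response elements ERSE and ERSE-II were matched in 0 of the 53 genes, which says only that their letters are not in these windows. Such a match is a description of the sequence and not a bound site. ACGTGGC was found in 3 of the 7 genes with a window that were higher in tumor than in both compartments, in 2 of the 6 that were lower than in both, and in 8 of the 16 that were lower in blood than in bone marrow. The sets overlap, as the 3 genes (Copg1, Ssr3 and Tmed9) are also among the 8. TGACGTGG was found in 0 of the 7, 2 of the 6 and 0 of the 16. The stretches below, from RefSeq, are shown because they belong to genes that moved in opposite directions and still share the letters, with the match on either strand in capitals.
Copg1 (higher in tumor, chr6:87887830-87887949, + strand, ACGTGGC): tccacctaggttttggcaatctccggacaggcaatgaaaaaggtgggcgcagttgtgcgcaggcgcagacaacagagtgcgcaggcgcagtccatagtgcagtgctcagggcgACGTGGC
Ssr3 (higher in tumor, chr3:65392681-65392800, - strand, ACGTGGC): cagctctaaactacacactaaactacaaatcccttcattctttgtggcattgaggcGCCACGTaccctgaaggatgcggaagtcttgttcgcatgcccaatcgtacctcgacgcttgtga
Tmed9 (higher in tumor, chr13:55593025-55593144, + strand, ACGTGGC): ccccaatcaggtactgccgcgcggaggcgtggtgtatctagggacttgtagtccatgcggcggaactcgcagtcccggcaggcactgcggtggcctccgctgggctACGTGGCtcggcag
Arf4 (higher in tumor, chr14:26637994-26638073, + strand, ACGTG): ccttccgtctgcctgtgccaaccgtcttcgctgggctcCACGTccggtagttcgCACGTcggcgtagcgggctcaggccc
Copb1 (lower in tumor, chr7:114254691-114254810, - strand, TGACGTGG): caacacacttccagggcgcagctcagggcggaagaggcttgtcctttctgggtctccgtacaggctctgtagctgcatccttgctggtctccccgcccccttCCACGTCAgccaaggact
Sec24c (lower in tumor, chr14:20674211-20674330, + strand, ACGTGGC): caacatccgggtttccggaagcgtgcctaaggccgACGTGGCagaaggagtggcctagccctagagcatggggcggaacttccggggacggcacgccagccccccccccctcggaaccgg
Ssr1 (lower in blood, chr13:37994199-37994318, - strand, ACGTGGC): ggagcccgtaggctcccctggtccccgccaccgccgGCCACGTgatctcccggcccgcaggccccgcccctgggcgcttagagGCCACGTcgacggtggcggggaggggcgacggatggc
Tmed3 (lower in blood and tumor than in bone marrow, chr9:89705174-89705293, - strand, ACGTGGC): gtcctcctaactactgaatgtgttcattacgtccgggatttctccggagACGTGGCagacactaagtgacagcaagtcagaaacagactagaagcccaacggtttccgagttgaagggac

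Of 5 signal recognition particle genes tested, 2 were higher and none lower in tumor than in blood (median log2 fold change 0.36), none was higher and 2 were lower in tumor than in bone marrow (-0.32), and 2 were lower in blood than in bone marrow (-0.63). Each class count here and below stands beside the same shares of all genes tested. In tumor, 28.1% were higher and 34.5% lower than in blood, and 22.4% and 32.9% than in bone marrow. In blood, 20.6% were higher and 23.6% lower than in bone marrow. Srp68 encodes one of the pair of large proteins that bind the core of the particle's RNA. Its log2 FPKM was 0.37, 0.44 and 0.55 in bone marrow, -1.06, -0.20 and -0.56 in blood and 0.50, 0.56 and 0.85 in tumor. Each blood library lay below all others, and the log2 fold change of tumor was 1.24 against blood (standard error, SE, 0.24, adjusted p = 0.00259) and 0.18 relative to bone marrow (adjusted p = 0.556). Srp72, the partner of Srp68, had log2 FPKM values of 1.33, 0.97 and 1.36 in bone marrow, 0.56, 0.42 and 0.79 in blood and 1.07, 0.91 and 1.31 in tumor. It was 0.51 higher in tumor than in blood on the log2 scale (SE 0.18, adjusted p = 0.0386) and 0.63 lower in blood than in bone marrow (log2 fold change -0.63, adjusted p = 0.0236). Each of these calls was lost in several fits with 1 library left out, at log2 fold changes of 0.42 without blood 2 and 0.40 without tumor 3 for the former, and -0.54 without blood 2 for the latter. Both were lost without the filter (adjusted p = 0.0774 and 0.0594).

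Srp9 and Srp14, which form the Alu domain that slows elongation, were called in tumor against bone marrow alone. Srp14 had log2 FPKM values of 3.45, 3.37 and 3.13 in bone marrow, 3.47, 3.23 and 3.06 in blood and 2.97, 2.94 and 2.36 in tumor. The tumor libraries were below all others, with a log2 fold change of -0.56 against bone marrow (SE 0.19, adjusted p = 0.0376) and -0.50 against blood (adjusted p = 0.0517). Srp9 had values of 2.15, 1.81 and 2.02 in bone marrow, 1.99, 1.31 and 1.40 in blood and 1.25, 1.48 and 0.66 in tumor, and tumor minus bone marrow gave a log2 fold change of -0.87 (SE 0.26, adjusted p = 0.0221) and tumor minus blood one of -0.44 (adjusted p = 0.175). Both calls against bone marrow were lost with plain library totals (log2 fold changes -0.11 and -0.42). Without tumor 3 they were lost too, at -0.36 for Srp14 and -0.63 for Srp9, as they were without bone marrow 1 (-0.50 and -0.79). The call of Srp14 was also lost without bone marrow 2 (-0.53), blood 2 (-0.56) or the filter (adjusted p = 0.0649), and that of Srp9 without bone marrow 3 (-0.85). Srp19 was called nowhere. The near-identical Srp54a and Srp54b, whose reads could be split between them, had 0 to 11 and 53 to 257 reads per library and were not tested.

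Translocon and TRAP genes had the highest class median of tumor over blood, with 4 of 7 tested higher and none lower (median log2 fold change 0.75), and 3 higher and none lower in tumor than in bone marrow (0.20). Ssr2 (ENSMUSG00000041355.12, chr3:88575876-88588419, GRCm38, + strand), the beta subunit of TRAP, had 321, 253 and 346 reads in bone marrow, 88, 100 and 64 in blood and 704, 510 and 824 in tumor. Log2 FPKM values were 1.94, 1.83 and 2.06 in bone marrow, 0.83, 0.52 and 0.13 in blood and 3.18, 2.43 and 3.05 in tumor. No compartments overlapped, and Ssr2 was 5.25-fold higher in tumor than in blood (log2 fold change 2.39, SE 0.24, adjusted p = 8.43e-05) and 1.92-fold higher than in bone marrow (0.94, adjusted p = 0.0116).

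Ssr3 (ENSMUSG00000027828.11, chr3:65379655-65392623, - strand), the gamma subunit, had log2 FPKM values of 4.10, 3.89 and 4.39 in bone marrow, 3.36, 3.06 and 3.44 in blood and 4.79, 4.69 and 4.71 in tumor. The same order held without overlap, with log2 fold changes of tumor of 1.44 against blood (SE 0.15, adjusted p = 9.13e-05) and 0.60 relative to bone marrow (adjusted p = 0.00953). Ssr1, the alpha subunit, had log2 FPKM values of 3.66, 3.55 and 3.66 in bone marrow, 2.79, 2.64 and 2.70 in blood and 3.45, 3.43 and 3.48 in tumor. It was lower in blood than in bone marrow by a log2 fold change of -0.91 (SE 0.08, adjusted p = 8.57e-05), whereas tumor against bone marrow gave -0.17 (adjusted p = 0.0962), which turned to 0.28 and passed the threshold with plain library totals. Ssr4, the delta subunit, was called in no comparison, with log2 fold changes of tumor of 0.50 against blood (adjusted p = 0.089) and 0.06 against bone marrow. The alpha, beta and gamma genes were thus lowest in blood, and only Ssr2 and Ssr3 were higher in tumor than in bone marrow on the deposited scale.

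Among the channel genes, Sec61a1 (ENSMUSG00000030082.13, chr6:88503579-88518905, - strand) encodes the pore-forming alpha subunit. Its log2 FPKM was 3.55, 3.36 and 3.32 in bone marrow, 3.43, 3.32 and 3.03 in blood and 4.08, 3.96 and 4.25 in tumor. The tumor libraries lay above all others, at log2 fold changes of 0.83 against blood (SE 0.13, adjusted p = 0.000848) and 0.68 relative to bone marrow (adjusted p = 0.00297), while blood and bone marrow overlapped. Its partner subunit gene Sec61b gave log2 fold changes of tumor of 0.28 and -0.14, and Sec62, which serves post-translational entry, gave 0.21 and 0.20, none of them past the threshold. Sec61a2, Sec61g and Sec63 were below the filter on low values. Sec61a2 had 6, 18 and 14 reads in bone marrow, 4, 8 and 9 in blood and 66, 76 and 69 in tumor, and without the filter it was higher in tumor than in blood (log2 fold change 2.76, adjusted p = 0.00302) and than in bone marrow (2.40, adjusted p = 0.00772). In that fit, 23.2% and 18% of all genes were higher. In RPKM over exons (RPM per kilobase of exon, on the scaled library sizes), Sec61a2 reached 2.14 ± 0.219 in tumor and Sec61a1 39.0 ± 3.95 (SD, n = 3 each).

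**Figure D3:**
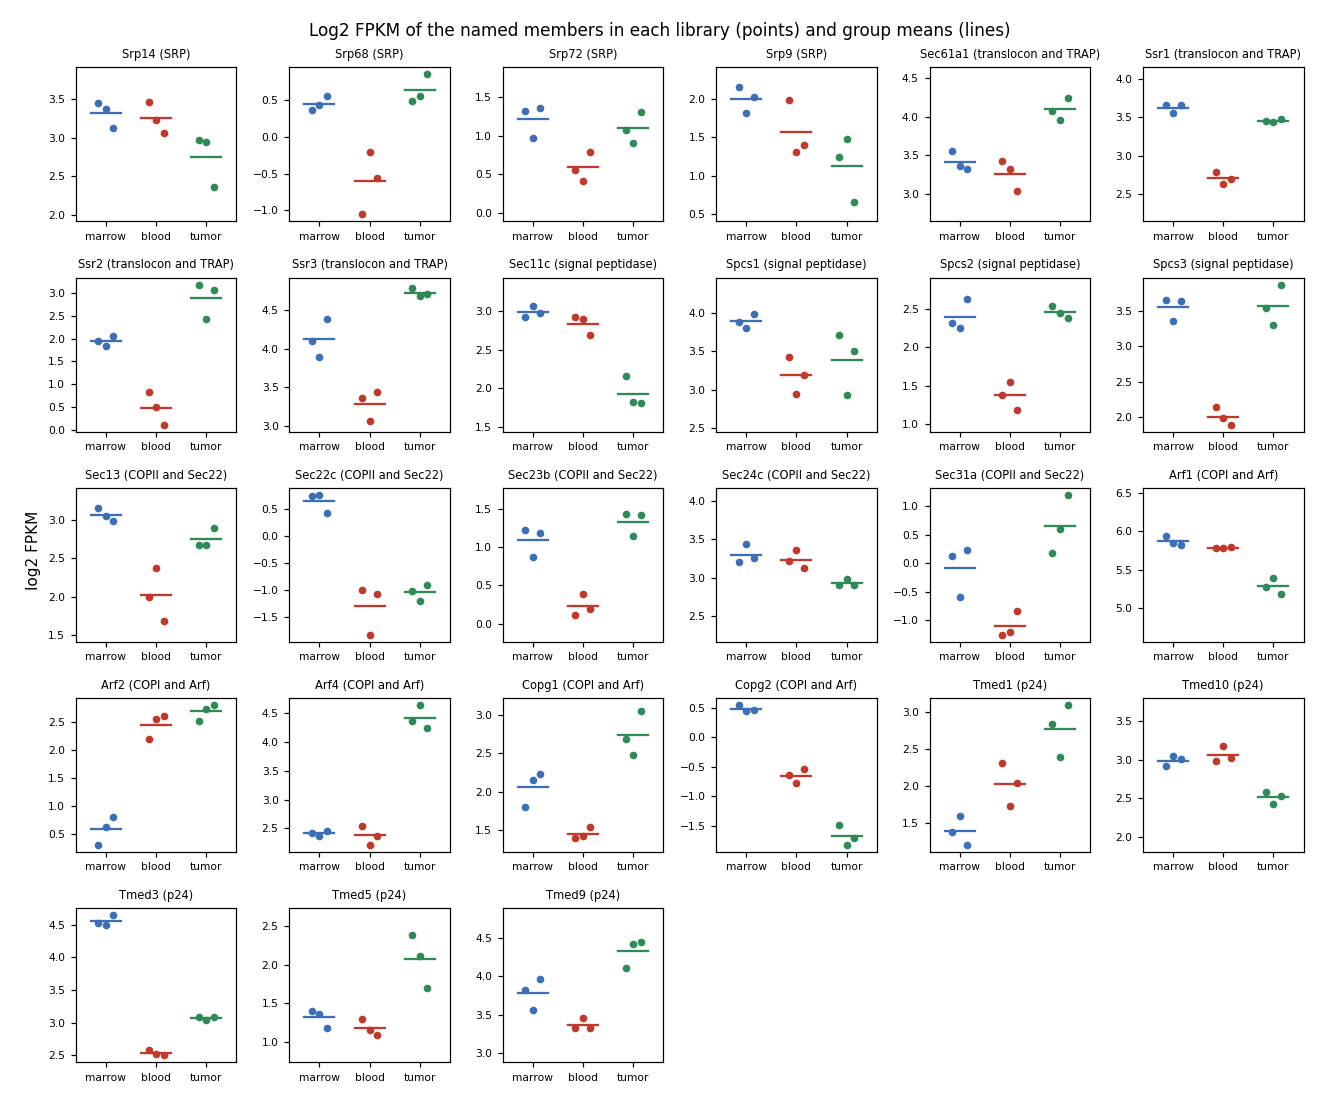
Log2 FPKM (vertical axis, a separate range in each panel of at least 2 units) of the 27 genes given by library, for bone marrow (blue), blood (red) and tumor (green). Points are libraries and lines are means of 3 libraries. Ssr2, Ssr3 and Copg1 show the order blood, bone marrow, tumor, Copg2 falls from bone marrow over blood to tumor, and Arf4 is raised in tumor alone.

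Among signal peptidase genes, Spcs1, Spcs2 and Spcs3 were called lower in blood than in bone marrow, and Sec11a and Sec11c were not. Of the 5 tested, 3 were lower in blood than in bone marrow (median log2 fold change -0.70), 2 were higher and 1 lower in tumor than in blood (0.52), and none was higher and 1 lower in tumor than in bone marrow (-0.01). Spcs3, an essential accessory subunit, had log2 FPKM values of 3.66, 3.36 and 3.64 in bone marrow, 2.14, 1.99 and 1.90 in blood and 3.54, 3.30 and 3.87 in tumor. Blood was 2.91-fold below bone marrow (log2 fold change -1.54, SE 0.16, adjusted p = 0.000252) and tumor was 2.95-fold above blood (1.56, adjusted p = 9.64e-05), while tumor and bone marrow overlapped (0.02, adjusted p = 0.932). Spcs2 had the same shape, with log2 FPKM values of 2.31, 2.25 and 2.62 in bone marrow, 1.38, 1.55 and 1.18 in blood and 2.54, 2.44 and 2.38 in tumor, and log2 fold changes of -1.02 for blood against bone marrow (adjusted p = 0.000933) and 1.08 for tumor against blood (adjusted p = 0.000331). Spcs1 was lower in blood than in bone marrow by a log2 fold change of -0.70 (adjusted p = 0.0272), with values of 3.88, 3.81 and 3.99 in bone marrow, 3.42, 2.94 and 3.19 in blood and 3.71, 2.93 and 3.50 in tumor. That call was lost without blood 2 (-0.58), blood 3 (-0.71), or any of bone marrow 1, 2 and 3 (-0.71, -0.75 and -0.66), and without the filter (adjusted p = 0.0501). The catalytic subunit gene Sec11c behaved differently. Its log2 FPKM was 2.92, 3.06 and 2.97 in bone marrow, 2.93, 2.90 and 2.69 in blood and 2.16, 1.81 and 1.81 in tumor, with log2 fold changes of tumor of -0.91 against blood (SE 0.13, adjusted p = 0.000416) and -1.06 relative to bone marrow (adjusted p = 0.000234). The other catalytic gene, Sec11a, was called in no comparison, with a log2 fold change of tumor of 0.52 against blood (adjusted p = 0.0625).

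COPII genes and the Sec22 family were lower in blood than in bone marrow in 6 of 11 tested, with 1 higher. In tumor, 3 were higher and 1 lower than in blood (median log2 fold change 0.25), and none was higher and 2 were lower than in bone marrow (0.01). Sec31a, whose product forms the outer cage with Sec13, had log2 FPKM values of 0.12, -0.60 and 0.23 in bone marrow, -1.26, -1.21 and -0.84 in blood and 0.17, 0.59 and 1.20 in tumor. It was 3.38-fold higher in tumor than in blood (log2 fold change 1.76, SE 0.34, adjusted p = 0.00234), and gave 0.74 against bone marrow (adjusted p = 0.0967). Its fall from bone marrow to blood (-1.02, adjusted p = 0.0411) was lost when any one of the blood libraries was left out (-0.94, -0.96 and -1.15) and without bone marrow 1 (-0.92), bone marrow 3 (-0.86) or tumor 2 (-1.02), as well as without the filter (adjusted p = 0.0715) and with plain library totals (adjusted p = 0.057). Sec13, which also serves nuclear pores, had values of 3.15, 3.05 and 2.99 in bone marrow, 2.00, 2.37 and 1.68 in blood and 2.68, 2.67 and 2.89 in tumor. The compartments did not overlap, and its log2 fold change was -1.05 in blood against bone marrow (SE 0.17, adjusted p = 0.00206) and 0.73 in tumor against blood (adjusted p = 0.00665). Tumor against bone marrow gave -0.32 (adjusted p = 0.153), which was not called and turned to 0.13 with plain library totals.

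Sec23b, of the inner coat, had log2 FPKM values of 1.22, 0.87 and 1.19 in bone marrow, 0.12, 0.39 and 0.19 in blood and 1.42, 1.14 and 1.41 in tumor. Blood was again below all other libraries, by log2 fold changes of -0.86 against bone marrow (SE 0.16, adjusted p = 0.00385) and 1.09 for tumor against blood (adjusted p = 0.000613). Its paralog Sec23a was called nowhere. Sec24c, a cargo-binding subunit and the gene of this class with the most reads, had values of 3.20, 3.43 and 3.25 in bone marrow, 3.21, 3.36 and 3.13 in blood and 2.90, 2.98 and 2.91 in tumor. Its log2 fold changes of tumor were -0.30 against blood (SE 0.10, adjusted p = 0.0269) and -0.36 relative to bone marrow (adjusted p = 0.0137), and with plain library totals they turned to 0.15 and 0.09 and were not called. The call against blood was also lost without blood 1 (-0.31), blood 2 (-0.24), tumor 1 (-0.29) or tumor 3 (-0.29), without the filter (adjusted p = 0.0829) and with limma-voom (adjusted p = 0.061), and that against bone marrow without bone marrow 2 (-0.30).

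Sec22c, an ER protein related to the SNARE Sec22b, showed the largest fall after bone marrow among the genes tested in this class. It had 283, 245 and 228 reads in bone marrow, 50, 40 and 57 in blood and 78, 84 and 108 in tumor. It was 3.84-fold lower in blood (log2 fold change -1.94, SE 0.27, adjusted p = 0.00101) and 3.21-fold lower in tumor (-1.68, adjusted p = 0.00126) than in bone marrow. Sec22c passed the filter through its bone marrow libraries alone. In the limma fit without the filter, both falls were still called (adjusted p = 0.00188 for blood and 0.00197 for tumor). Sec22b, the SNARE of vesicles between ER and Golgi, was lower in blood than in bone marrow (-0.50, adjusted p = 0.0167), as was the GTPase gene Sar1b (-0.58, adjusted p = 0.04), and Sec16a, the scaffold of ER exit sites, was higher there (0.53, adjusted p = 0.0359). All 3 calls were lost without the filter (adjusted p = 0.0525, 0.0941 and 0.0934), and that of Sar1b with plain library totals too (adjusted p = 0.0572). Sar1a and Sec24b were called nowhere, and the log2 FPKM of Sec24b ranged from -0.10 to 1.05 among the tumor libraries.

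Of the COPII genes, 5 were below the filter. Sec16b, the shorter relative of Sec16a, had 54, 29 and 31 reads in bone marrow, 0, 0 and 0 in blood and 97, 59 and 162 in tumor. Against a floor of 3 reads over the 3 blood libraries, it was at least 69.4-fold higher in tumor and at least 28.5-fold higher in bone marrow, a bound that covers counting error only. Sec24d had 80, 46 and 115 reads in bone marrow, 15, 5 and 26 in blood and 221, 237 and 504 in tumor, and without the filter its log2 fold change of tumor against blood was 3.93 (adjusted p = 0.00233). Sec24a had 46, 82 and 86 reads in bone marrow, 63, 79 and 68 in blood and 215, 383 and 236 in tumor, with log2 fold changes of tumor of 1.33 against blood (adjusted p = 0.0233) and 1.77 relative to bone marrow (adjusted p = 0.00737) in the same fit. Sec22a was higher in tumor than in blood in that fit (1.68, adjusted p = 0.0214), and Sec31b, with 2 to 23 reads per library, was not called.

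**Figure D4:**
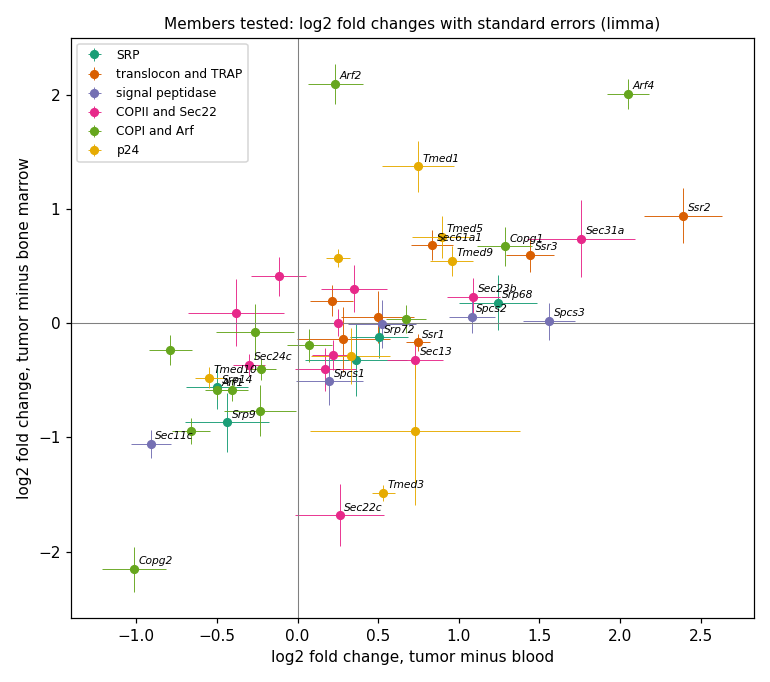
Log2 fold change of tumor minus blood (horizontal axis) and of tumor minus bone marrow (vertical axis) for the 49 genes tested, coloured by role, with SEs from limma. Both axes use the same tumor libraries. Arf4 lies at 2.05 and 2.01, Ssr2 furthest right at 2.39, Copg2 lowest at -2.15, and Arf2 at the top with 2.10.

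Of 13 COPI and Arf genes tested, 3 were higher and 5 lower in tumor than in blood (23.1% and 38.5%, median log2 fold change -0.23). Against bone marrow, 3 were higher and 6 lower (23.1% and 46.2%, median -0.24). The shares of all genes tested were 28.1% and 34.5% against blood and 22.4% and 32.9% against bone marrow. Arf4 (ENSMUSG00000021877.10, chr14:26638074-26665084, + strand), a GTPase of the Golgi and recycling endosomes, had 966, 788 and 983 reads in bone marrow, 623, 699 and 654 in blood and 3459, 5134 and 4084 in tumor. These are log2 FPKM values of 2.42, 2.37 and 2.45 in bone marrow, 2.55, 2.21 and 2.37 in blood and 4.37, 4.65 and 4.25 in tumor. The tumor libraries stood far above the rest, 4.13-fold over blood (log2 fold change 2.05, SE 0.13, adjusted p = 9.28e-06) and 4.03-fold over bone marrow (2.01, adjusted p = 1.13e-05), while blood and bone marrow overlapped. The call held under every alternative fitted. Arf4 shares 5127 bases with Pde12 on the opposite strand, and whether reads were counted by strand is not given in the sources used here.

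Arf2 (ENSMUSG00000062421.12, chr11:103966739-103985337, + strand) was instead low in bone marrow. Its log2 FPKM was 0.31, 0.63 and 0.80 in bone marrow, 2.19, 2.55 and 2.59 in blood and 2.51, 2.73 and 2.80 in tumor. It was 3.64-fold higher in blood (log2 fold change 1.86, SE 0.17, adjusted p = 0.000143) and 4.28-fold higher in tumor (2.10, adjusted p = 3.59e-05) than in bone marrow, and blood and tumor overlapped (0.23, adjusted p = 0.268; with plain library totals 0.68, adjusted p = 0.012). Arf1, the main GTPase that recruits COPI, had the most reads of all 63 genes, with log2 FPKM values of 5.94, 5.85 and 5.82 in bone marrow, 5.78, 5.78 and 5.79 in blood and 5.28, 5.39 and 5.19 in tumor. The tumor libraries were below all others at log2 fold changes of -0.50 against blood (SE 0.07, adjusted p = 0.00064) and -0.59 relative to bone marrow (adjusted p = 0.000341), and both calls were lost with plain library totals (-0.05 and -0.13). Arf3 was highest in blood, at log2 fold changes of 0.55 over bone marrow (adjusted p = 0.0114) and -0.79 for tumor against blood (adjusted p = 0.00118), the latter not called with plain library totals (-0.34, adjusted p = 0.055). Arf5 was lower in tumor than in bone marrow (-0.77, adjusted p = 0.0199), a call lost with plain library totals (-0.32, adjusted p = 0.267). Arf6, which acts at the plasma membrane, was called nowhere.

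In the coat itself, the gamma subunit exists as a pair of paralogs that moved apart. Copg1 (ENSMUSG00000030058.16, chr6:87887814-87913595, + strand) had log2 FPKM values of 1.80, 2.16 and 2.23 in bone marrow, 1.40, 1.42 and 1.53 in blood and 2.68, 2.48 and 3.04 in tumor. Its tumor libraries were above all others, with log2 fold changes of 1.28 against blood (SE 0.17, adjusted p = 0.000371) and 0.67 relative to bone marrow (adjusted p = 0.0116). It was lower in blood than in bone marrow (-0.61, adjusted p = 0.0227), a call lost without blood 1 (-0.58), blood 2 (-0.60), bone marrow 2 (-0.56) or bone marrow 3 (-0.53), and without the filter (adjusted p = 0.0545).

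Copg2 (ENSMUSG00000025607.14, chr6:30747554-30896794, - strand) had 1460, 1147 and 1356 reads in bone marrow, 376, 485 and 480 in blood and 329, 319 and 364 in tumor. On the log2 FPKM scale this was 0.55, 0.44 and 0.45 in bone marrow, -0.65, -0.78 and -0.54 in blood and -1.49, -1.82 and -1.70 in tumor. Each step down was free of overlap, by a log2 fold change of -1.14 from bone marrow to blood (SE 0.20, adjusted p = 0.00259) and -1.01 from blood to tumor (adjusted p = 0.00249), so that tumor was 4.45-fold below bone marrow (-2.15, adjusted p = 6.26e-05). Copg2 passed the filter through its bone marrow libraries alone. In the limma fit without the filter, both falls from bone marrow were still called (adjusted p = 0.0063 for blood and 0.000116 for tumor). The tumor calls of Copg1 and Copg2 kept their directions with plain library totals, at 1.73 and -0.57 against blood and 1.12 and -1.70 against bone marrow. Of the other coat subunits, Copz1 (-0.66 and -0.94) and Copb1 (-0.40 and -0.58) were lower in tumor than in either compartment, in log2 fold changes against blood and bone marrow, Copa was lower than in bone marrow (-0.40, adjusted p = 0.00683), and Cope was higher than in blood (0.67, adjusted p = 0.00192). With plain library totals, Copa turned to 0.05 (adjusted p = 0.684) and both tumor differences of Copb1 (0.04 and -0.13) and that of Copz1 from blood (-0.21) were not called. Copb2 was called nowhere, and Copz2 had at most 6 reads in any library.

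Within a library, the ratio of a pair of paralogs does not depend on how the library is scaled. Ratios of reads per kilobase of exon could be taken for 8 of 13 pairs, those with at least 10 reads of both genes in every library, which gave 24 comparisons between compartments. The log2 ratio of Copg1 to Copg2 was -2.38, -1.92 and -1.86 in bone marrow, -1.59, -1.43 and -1.56 in blood and 0.54, 0.67 and 1.11 in tumor. Copg2 thus had more reads per kilobase of exon in all 6 bone marrow and blood libraries, and Copg1 in all 3 tumor libraries. Which paralog leads depends on the length used. In the deposited log2 FPKM, scaled to the genomic span of both genes, Copg1 was above Copg2 in every library. Whether reads in introns were counted is not given in the sources used here. The shift of the ratio between compartments does not depend on these lengths. The mean shifted by 2.30 from blood and by 2.83 from bone marrow to tumor (exact two-sided permutation tests, p = 0.1 each, adjusted p = 0.133 over the 24 comparisons). With 3 against 3 libraries, 0.1 is the smallest p possible, so no ratio could pass the threshold.

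The log2 ratio of Arf4 to Arf5 was 0.07, 0.23 and 0.28 in bone marrow, 1.25, 0.46 and 0.37 in blood and 3.33, 2.96 and 2.62 in tumor. Per kilobase of exon, the pair was thus near equal in bone marrow and dominated by Arf4 in tumor. Arf5 shares 3043 bases, its whole span, with Gcc1 on the opposite strand, and the effect of this on its reads was not tested. The ratio of Sec11a to Sec11c had log2 means of -0.87 ± 0.20 for bone marrow, -1.25 ± 0.13 for blood and 0.18 ± 0.27 for tumor (SD, n = 3 each). Sec24a rose relative to Sec24b, from -4.12 ± 0.51 and -4.15 ± 0.35 to -2.44 ± 0.49 in the same order, and Sec22b fell relative to Sec22a, from 4.95 ± 0.39 and 4.98 ± 0.68 to 3.51 ± 0.18. Sec23a relative to Sec23b was highest in blood, at 0.97 ± 0.35 against 0.15 ± 0.23 in bone marrow and 0.22 ± 0.20 in tumor. The ratio of Arf1 to Arf3 overlapped between tumor and each other compartment, and that of Sar1a to Sar1b between tumor and blood.

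**Figure D5:**
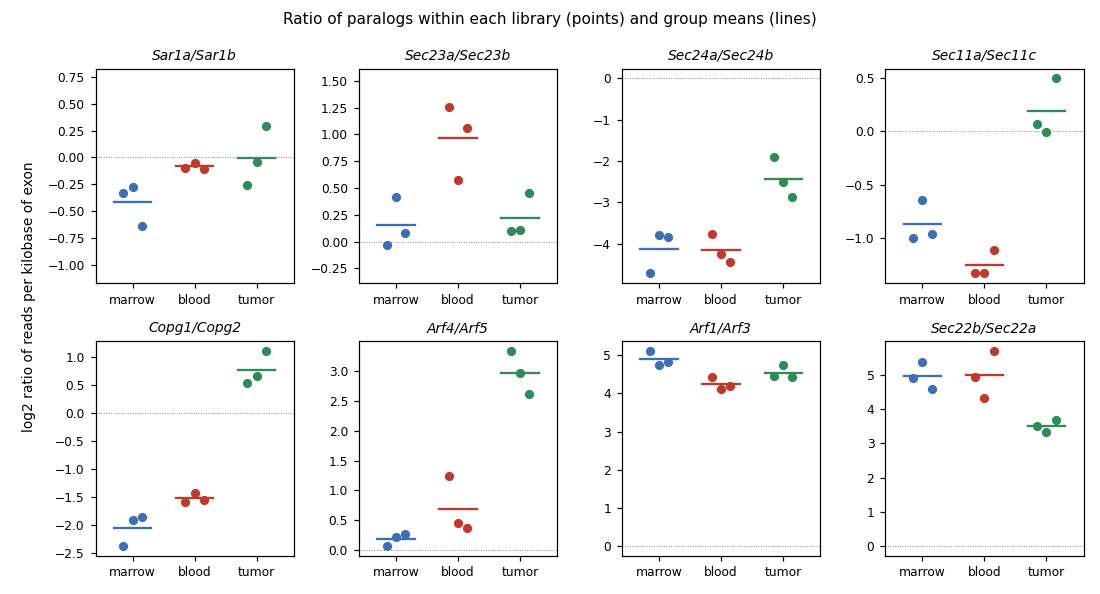
Log2 ratio of reads per kilobase of exon for the 8 pairs of paralogs (vertical axis, a separate range in each panel) in bone marrow (blue), blood (red) and tumor (green). Points are libraries, lines are means of 3 libraries, and the dotted line at 0 marks equal reads per kilobase of exon. The Copg1/Copg2 ratio lies below 0 in all bone marrow and blood libraries and above 0 in all 3 tumor libraries.

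The p24 cargo receptors, of which 8 of 11 were tested, had 5 genes higher and 1 lower in tumor than in blood (median log2 fold change 0.63) and 4 higher and 2 lower than in bone marrow (0.13). Tmed9 had log2 FPKM values of 3.82, 3.56 and 3.96 in bone marrow, 3.33, 3.45 and 3.33 in blood and 4.11, 4.42 and 4.45 in tumor. All tumor libraries were above all others, with log2 fold changes of 0.96 against blood (SE 0.13, adjusted p = 0.000456) and 0.55 relative to bone marrow (adjusted p = 0.00941). Its fall in blood against bone marrow (-0.41, adjusted p = 0.0395) was lost without any one of the blood libraries (-0.39, -0.45 and -0.39), without bone marrow 1 (-0.39) or bone marrow 3 (-0.32), with plain library totals (-0.41, adjusted p = 0.0718), without the filter (adjusted p = 0.0897) and with limma-voom (adjusted p = 0.114). Tmed5 had values of 1.40, 1.37 and 1.18 in bone marrow, 1.30, 1.15 and 1.09 in blood and 2.39, 2.12 and 1.71 in tumor, and was higher in tumor by log2 fold changes of 0.89 and 0.76 (SE 0.18 each, adjusted p = 0.00319 and 0.00871). Tmed1 had 49, 48 and 43 reads in bone marrow, 55, 52 and 54 in blood and 125, 111 and 191 in tumor. Tumor minus bone marrow gave a log2 fold change of 1.38 (SE 0.22, adjusted p = 0.00119) and tumor minus blood one of 0.75 (adjusted p = 0.0189), the latter call being lost without blood 2 (0.60), tumor 1 (0.72) or tumor 3 (0.59). Tmed4 completed the group, with tumor 0.25 over blood (adjusted p = 0.0212) and 0.57 over bone marrow (adjusted p = 0.000443) on the log2 scale, the former call being lost without the filter (adjusted p = 0.0955) and with limma-voom (adjusted p = 0.214).

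Tmed3 and Tmed10 went the other way from bone marrow to tumor. Tmed3 (ENSMUSG00000032353.8, chr9:89699206-89705068, - strand) had 900, 747 and 976 reads in bone marrow, 138, 188 and 156 in blood and 308, 365 and 393 in tumor. The log2 FPKM values were 4.52, 4.49 and 4.65 in bone marrow, 2.58, 2.52 and 2.51 in blood and 3.08, 3.04 and 3.08 in tumor. The libraries of a compartment lay close together, and blood was 4.05-fold below bone marrow (log2 fold change -2.02, SE 0.07, adjusted p = 5e-06), with tumor between them, -1.49 against bone marrow (adjusted p = 4.03e-06) and 0.53 against blood (adjusted p = 0.000424). It was the one gene of the 49 called both higher than in blood and lower than in bone marrow. Tmed10, the p24 gene with the most reads, had values of 2.92, 3.05 and 3.01 in bone marrow, 2.99, 3.18 and 3.02 in blood and 2.58, 2.43 and 2.53 in tumor. Its log2 fold changes of tumor, -0.55 against blood (SE 0.09, adjusted p = 0.00108) and -0.48 relative to bone marrow (adjusted p = 0.00277), shrank to -0.10 and -0.02 and lost their calls with plain library totals. Tmed2 and Tmed7 were called nowhere, and Tmed7, which overlaps Ticam2 on its own strand, ranged from 58 to 303 reads in blood. Tmed6 had 0 reads in all bone marrow and blood libraries and 1, 1 and 13 in tumor, Tmed11 had 1 read in all, and Tmed8, with 55 to 140 reads per library, was not called without the filter.

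Between genes, levels were compared as RPKM over exons. Whether reads in introns were counted is not given in the sources used here, so these ranks depend on the length chosen. Arf1 was the most abundant in every compartment, with means of 473 ± 20.9 for bone marrow, 445 ± 2.65 for blood and 315 ± 21.6 for tumor (SD, n = 3 each). Next in tumor came Arf4 at 162 ± 23.7, followed by Ssr3 at 82.5 ± 3.18 and Tmed2 at 77.8 ± 14.1, whose ranges of 1 SD overlap. In bone marrow the next were Tmed2 at 93.7 ± 4.52 and Copz1 at 88.8 ± 4.63, and in blood Copz1 at 73.4 ± 9.39 and Tmed2 at 63.7 ± 21.9, again within their spread. Arf4 stood at 39.9 ± 1.22 in bone marrow and 39.1 ± 4.52 in blood.

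Of 95 further genes of the early secretory pathway, 62 were tested, and 16 were higher and 14 lower in tumor than in blood, where 28.1% and 34.5% of all genes tested were. Against bone marrow, tumor had 12 higher and 18 lower (22.4% and 32.9% of all genes tested) and blood 6 higher and 18 lower (20.6% and 23.6%). The oligosaccharyltransferase, which sits beside the translocon and attaches glycans, had 6 of 9 genes higher in tumor than in blood and none lower (median log2 fold change 1.27), 3 higher than in bone marrow, and 5 lower in blood than in bone marrow. Its ribophorin gene Rpn1 had log2 fold changes of tumor of 1.63 against blood and -0.02 against bone marrow, and Ddost of 2.45 and 0.41. The 3 called higher in tumor than in both were Krtcap2 (2.30 and 1.41), the other ribophorin gene Rpn2 (1.98 and 0.81) and Stt3a (1.27 and 0.59). Tethers and golgins, which catch vesicles at the Golgi, had 0 of 17 genes higher and 10 lower in tumor than in bone marrow (median -0.45), and 1 higher and 4 lower than in blood. Among COPII partners and exit site genes, 2 of 8 were higher and 4 lower in tumor than in blood, and 1 was higher and 3 lower than in bone marrow. Of 13 cargo and KDEL receptor genes, 4 were higher and 4 lower than in blood, and 5 higher and 2 lower than in bone marrow. The 8 COPI partners and Arf regulators had 1 higher and 1 lower than in blood, and 0 higher and 2 lower than in bone marrow. For the 3 genes of the SRP receptor and translocon partners it was 1 higher and 0 lower in either comparison, and for the 4 regulators of the secretory programme 1 and 1 against blood and 2 and 1 against bone marrow.

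Arcn1, the delta subunit of COPI, was higher in tumor than in blood (log2 fold change 0.40, adjusted p = 0.0137) and not called against bone marrow (0.13, adjusted p = 0.354). The pair highest in tumor against both compartments, Kdelr3 and Creb3l4, exceeded the filter through the tumor libraries alone, so they could only be tested because they were high there. Kdelr3, a receptor that returns ER residents, had 0, 2 and 7 reads in bone marrow, 0, 2 and 0 in blood and 98, 111 and 147 in tumor, and the transcription factor gene Creb3l4 had 0, 0 and 1, then 1, 3 and 0, then 63, 64 and 105. The lowest pair were Ctage5, an exit site gene, with log2 fold changes of tumor of -1.38 against blood and -1.21 against bone marrow, and the tether gene Trappc1, with -1.16 and -1.43.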

How the data were processed

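RNA-seq of 9 neutrophil libraries was analysed (SMARTSeq v2, paired ends; RNA from pools of 5 mice). Per the methods and processing notes, the authors mapped reads to GRCm38 with STAR 2.5.2b, counted them on GENCODE M7 genes with featureCounts 1.5.0, and calculated log2 FPKM. These log2 values were deposited by the authors for 46517 genes and used as they stand, with a constant of 0.25 reads inside them. The length used was the genomic span for 84.5% of the genes found in GENCODE M21, and for 45 of the 63 genes, so levels were compared between genes per kilobase of exon. Of the 63 genes, 33 overlap another annotated gene. Whole reads were recovered from the steps between values for all 46517 genes (4580807 to 7949367 per library). PCR duplicates remain in the reads, so bounds cover counting error only.

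The 7794 genes that exceeded a log2 FPKM of 0 in 3 or more libraries entered a limma fit (version 3.58.1, R 4.3.3, moderated with an intensity trend) on all 3 compartments, with Benjamini-Hochberg adjustment at 0.05 over all genes tested. A tumor call against both compartments needed both contrasts to pass. P-values measure the spread between pools. Ratios of paralogs were tested by exact permutation over libraries (scipy 1.17.1). Given by library were, in each class, up to 4 genes with the largest absolute log2 fold change past the threshold in any comparison and the gene with the most reads. Of the other pathway genes, the 2 highest and 2 lowest in tumor against both compartments and Arcn1 were given. Chosen after their values were seen, Rpn1, Ddost and the oligosaccharyltransferase genes higher in tumor than in both were also given. Members and lists were chosen with earlier results of these data known. Alternatives were no filter, a stricter filter (over 2), pseudocounts of 1 and 0.1, plain library totals, median centring, limma-voom on recovered reads (at least 5 in any library), the replicate block, only the 2 compartments compared, and each library left out.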

Additional observations from a re-analysis of the deposited data

How the results depend on the processing

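Over the alternatives, 220 of the values that answer a comparison stayed within 1.5 times of the reported count or within the replicate spread, and 24 moved. Plain library totals moved the counts in tumor against blood to 30 higher and 2 lower (median 0.73), against bone marrow to 19 and 5 (median 0.33), and against both to 18 and 2, and reversed Ssr1 against bone marrow (0.28) and Sec24c against blood (0.15) and bone marrow (0.087). With limma-voom on recovered reads, over 62 of the 63 genes, the medians were 0.40 and 0.028. In that fit 18 genes were higher than in bone marrow and 14 than in both, and 133 calls were made among the other pathway genes (84 reported). Without the filter, over all 63 genes, the medians were 0.43 and 0.040, and 2 genes were higher in blood than in bone marrow. The stricter filter gave 12 lower in blood than in bone marrow (median -0.28) and 48 pathway calls, and a pseudocount of 1 a median of -0.33 there. For these counts with limma-voom, no filter and the stricter filter, the shares of all genes called were not calculated. They therefore cannot be set against all genes.

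With each library left out in turn, tumor against blood gave 16 to 22 higher and 7 to 9 lower (median 0.24 to 0.42; 0.39 without blood 1, 0.38 without blood 3, 0.42 without tumor 2), tumor against bone marrow 10 higher and 11 to 13 lower (median -0.17 to -0.06), blood against bone marrow 3 to 5 higher and 12 to 20 lower (median -0.47 to -0.37; 12 without bone marrow 3), and 7 to 9 genes were higher and 6 to 8 lower in tumor than in both. Calls of the named genes ranged from 49 to 59 (57 reported) and those of other pathway genes from 69 to 85. Of the values for single named genes, 1340 kept their call, 70 lost it, 21 gained it and 3 reversed. The cause was not tested. Shares of all genes called were not calculated for the fits with a library left out. A change in these counts can thus not be set against all genes.

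Replicate numbers are shared between compartments, but deviations of same-numbered libraries correlated at -0.07 to 0.11. The paper describes the compartments as taken from the same mouse. The labels do not say whether a shared number marks the same pool of mice, and these values do not settle it. The main fit and the permutation tests were unpaired. With the replicate block, tumor against blood gave 20 genes higher and 9 lower, and tumor against bone marrow 10 and 14. Blood against bone marrow gave 4 and 18, and tumor against both 9 and 8. The shares of all genes called with the block were not calculated. Depth limits the genes with few reads, and pooled mice leave 3 values per compartment.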
